A study of Mus musculus with 6 samples.

Results

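Fetal and neonatal liver makes a set of transcripts that the adult organ largely silences in the weeks after birth, and 9 of these genes were followed in mouse liver with and without a deletion of Srf. The set held Afp, H19, Igf2, Gpc3, Dlk1, Bex1, Lpl, Zhx2 and Igf2bp3, which were picked by name, with earlier results of these data known. Their probe sets were those annotated with exactly 1 gene symbol, that of a member, which gave 20 of the 45101 probe sets on the array and covered 8 of the 9 genes. The only probe set annotated for H19 also names the microRNA gene Mir675, so H19 had none by this rule, and that probe set is described as shared and was assigned to neither gene. Liver samples came from male mice 3 weeks old, 3 control and 3 mutant samples, each hybridised to its own array. All mice carried the AlfpCre transgene, a Cre recombinase driven in the hepatocyte lineage by albumin regulatory elements with enhancers of the Afp gene. Controls were Srf loxP/+, with 1 loxP-flanked and 1 normal copy of Srf, so they had themselves lost a copy where Cre acted, and mutants were Srf loxP/loxP. Srf encodes serum response factor, a transcription factor of actin cytoskeleton and immediate early genes. Whole liver RNA was used, so fewer cells of a type and less RNA per cell cannot be told apart.

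Afp encodes alpha-fetoprotein, the serum protein of the fetus that is replaced by albumin after birth. H19 is an imprinted non-coding RNA and the host transcript of miR-675, and the neighbouring imprinted gene Igf2 encodes a fetal growth factor. Gpc3 encodes glypican 3, a cell surface proteoglycan, and Dlk1 a transmembrane protein of fetal hepatoblasts. Lpl encodes lipoprotein lipase, which the liver of newborn mice expresses and adult hepatocytes shut down. Zhx2 encodes a homeodomain protein known from mouse strains that fail to silence Afp, H19, Gpc3 and Lpl after birth. Igf2bp3 encodes an RNA-binding protein of embryonic tissue, and Bex1 a small X-linked protein found mainly in brain.

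RefSeq start sites of build GRCm38.p6 gave a promoter window for 6 of the 9 members, 9 windows in all since Igf2 has several, and each was read here as the 250 bases before the start. The windows shown are those of Afp, the member that names the set, and of Bex1, Gpc3 and Igf2, whose probe sets had the lowest unadjusted p-values. Capitals mark matches on either strand to 4 motifs: the TATA box (TATAAA), the motif GTTAAT (part of the HNF1 site), TGTTTAC (a FOXA site) and the CArG box, which SRF binds. For Igf2 the window with a CArG box is shown.
Afp, chr5:90490464-90490713, plus strand: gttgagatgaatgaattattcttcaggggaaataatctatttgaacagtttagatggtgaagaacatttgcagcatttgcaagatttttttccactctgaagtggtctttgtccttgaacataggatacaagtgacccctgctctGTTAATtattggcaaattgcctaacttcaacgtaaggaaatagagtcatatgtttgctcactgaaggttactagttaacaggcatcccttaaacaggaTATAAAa
Bex1, chrX:136215514-136215763, minus strand: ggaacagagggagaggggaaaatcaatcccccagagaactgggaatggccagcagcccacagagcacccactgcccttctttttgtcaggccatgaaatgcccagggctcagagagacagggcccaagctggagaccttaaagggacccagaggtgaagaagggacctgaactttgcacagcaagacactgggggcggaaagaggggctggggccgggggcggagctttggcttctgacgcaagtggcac
Gpc3, chrX:52613975-52614224, minus strand: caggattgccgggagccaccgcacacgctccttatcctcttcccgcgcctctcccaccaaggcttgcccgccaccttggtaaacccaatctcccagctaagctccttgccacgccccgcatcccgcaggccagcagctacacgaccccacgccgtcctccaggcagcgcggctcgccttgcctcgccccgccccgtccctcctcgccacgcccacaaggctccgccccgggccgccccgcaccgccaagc
Igf2, chr7:142661272-142661521, minus strand: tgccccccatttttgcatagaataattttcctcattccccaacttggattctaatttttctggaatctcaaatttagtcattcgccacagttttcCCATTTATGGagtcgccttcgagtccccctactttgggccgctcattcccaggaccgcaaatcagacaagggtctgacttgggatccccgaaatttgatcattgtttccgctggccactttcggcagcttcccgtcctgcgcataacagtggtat
The Afp window held the letters of a TATA box, ending 1 base before the annotated start, and the HNF1 motif, ending 99 bases before it. The windows of Bex1 and Gpc3 held none of the 4 motifs. The CArG box of Igf2 lay 145 bases before that start and reads as a CArG box on both strands, and the other 3 Igf2 windows had none. The FOXA motif was found in the Dlk1 window alone among the members, with 2 matches ending 80 and 60 bases before the start. Among all 32851 RefSeq windows of the same length, 1.47% held a CArG box, 12.4% the TATA box, 6.43% the HNF1 motif and 3.17% the FOXA motif. The number of CpG pairs ranged widely among the members, from 1 in the Afp window and 4 in that of Bex1 to 25 in that of Gpc3, where the median of all windows was 6. A match describes the letters only.

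The mature products of Mir675 (RefSeq, GRCm38.p6, minus strand, 5p at chr7:142577112-142577133 and 3p at chr7:142577078-142577099) are shown because H19 shares its only probe set with that gene. Capitals mark the seed, bases 2 to 8, and the 2 arms have different seeds.
mmu-miR-675-5p: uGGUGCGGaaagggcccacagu
mmu-miR-675-3p: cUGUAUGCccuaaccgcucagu

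Signals are given as log2 of the deposited intensity after scaling the arrays to 1 level. A background level was taken from olfactory, vomeronasal and bitter taste receptor probe sets, at 2.87 in controls and 3.04 in mutants. Of the 20 member probe sets, 6 had both group means at or below it, and 15 passed the filter on dim probe sets and were tested. All 15 had both group means above the filter's threshold. None of the 15 passed the threshold of 0.05 for the adjusted p (limma, adjusted by Benjamini-Hochberg across the 27022 probe sets tested), where 0.074% of all probe sets did, 0.0148% higher and 0.0592% lower in mutants. By genes the share was 0.114%. At an unadjusted p under 0.05 there were 3 member probe sets higher in mutants and 0 lower, against 7.6% and 6.18% of all probe sets. The 3 were those of Bex1, Gpc3 and Igf2.

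The arrays were not alike, which touches every value below. Correlations between arrays over the probe sets kept ran from 0.937 to 0.941 among controls, from 0.827 to 0.907 among mutants and from 0.781 to 0.931 between the groups. The index of 3' over 5' signal of the Actb, Gapdh and Pcx control probe sets, a measure of RNA integrity, was 0.91, 0.78 and 1.22 (log2) in controls 1 to 3 and 2.18, 1.18 and 1.57 in mutants 1 to 3. Mutant 2 thus lay within the control range and mutants 1 and 3 above it. The brighter Srf probe set (1418256_at) read 5.31, 5.14 and 5.11 in controls, against 4.17, 5.24 and 2.54 in mutants 1 to 3, so mutant 2 lay among the controls there too. The sources used here do not place this probe set relative to the deletion, so it does not check the labels. Markers of hepatocytes were bright on all arrays, with 8 of 10 measured, none of them at background, and a summed scaled signal of 43404 to 49529 in controls and 53039 to 64818 in mutants. The direction of the single markers turned with the scaling: 7 of the 8 had a positive difference as reported and 1 of 8 on the deposited scaling.

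**Figure D1:**
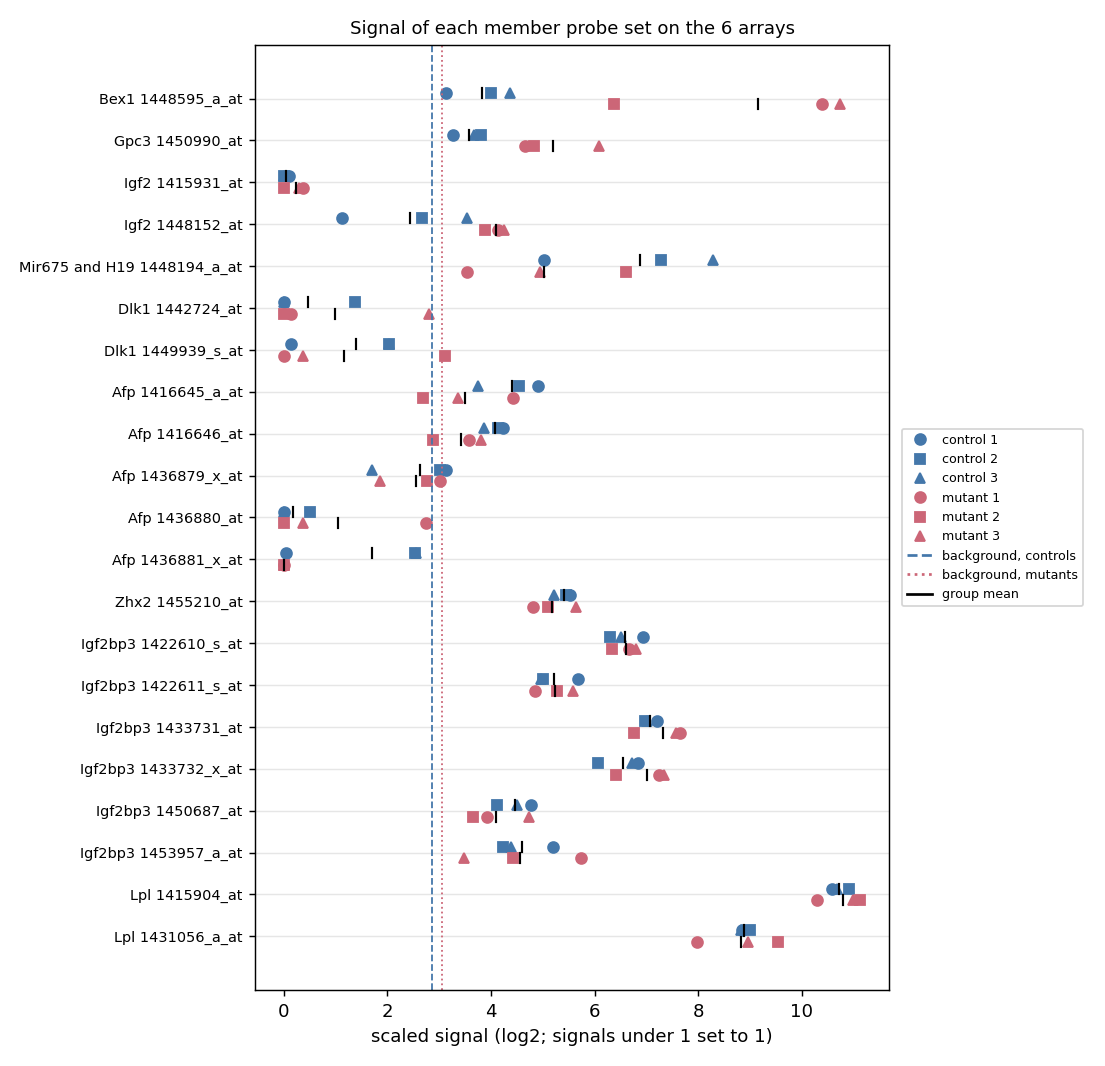
Log2 scaled signal (x axis) of the 20 member probe sets and of the probe set shared by Mir675 and H19 on the 6 arrays, with the group means as black ticks and the background level of each group as a vertical line. The Bex1 probe set has all 3 mutants above 6 and all 3 controls under 5, while those of Lpl, Zhx2 and Igf2bp3 overlap between the groups. Signals of different probe sets are not on 1 scale of abundance.

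Bex1 had the widest separation of the set. Its probe set (1448595_a_at) read 3.12, 3.995 and 4.36 in controls 1 to 3 and 10.38, 6.37 and 10.73 in mutants 1 to 3. All 3 mutants lay above all 3 controls, and mutant 2 was the mutant closest to them. In the deposited, unscaled intensities the controls read 8.90, 20.7 and 23.1 and the mutants 921, 89.2 and 1335. The group means were 3.82 ± 0.64 and 9.16 ± 2.42 (SD, n = 3), a difference of 5.34 on the log2 scale (SE 1.05, 95% interval 2.92 to 7.75) or 40.4-fold, and it did not pass the adjusted threshold (unadjusted p = 0.00093, adjusted p = 0.151, limma). The controls lay near background, with control 1 below the level of its own array (3.26), which limits the ratio. After log2(signal + 32) the difference was 3.79 (adjusted p = 0.146, limma). Without mutant 2 the difference was 6.73 and passed (adjusted p = 0.00214, limma), and without mutant 1 it was 4.73 and did not (adjusted p = 0.119, limma). Mutant 2, the lowest of the mutants for Bex1, also had the lowest 3' over 5' index of the mutants. Fitted together with that index, the difference was 3.13 (adjusted p = 0.929, limma). The probe sets of Gpc3 and Igf2 had the same adjusted p in that fit, so the value is not particular to Bex1. Since the index of mutants 1 and 3 lay above all controls, a fit with 6 arrays separates it poorly from genotype, here and below.

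The other Bex genes on the array were also higher on average in mutants, by much less. Bex2 (1417388_at) read 0.46, 2.64 and 3.90 in controls and 4.90, 3.31 and 5.12 in mutants, with overlapping groups and a control mean below background. Bex3 (1428842_a_at) read 5.09, 5.61 and 5.76 in controls and 6.64, 5.79 and 6.20 in mutants, with no overlap but with mutant 2 only slightly above control 3. Bex4 (1428209_at) differed by 0.94 with overlapping groups. None of these 3 passed (adjusted p = 0.360, 0.366 and 0.397, limma), and in each the lowest mutant was mutant 2, as for Bex1. The difference was positive for all 4 Bex genes on the deposited scaling and with arrays centred on their median as well. Bex2, Bex3 and Bex4 are described here because Bex1 is a member, a choice made after their values were seen.

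**Figure D2:**
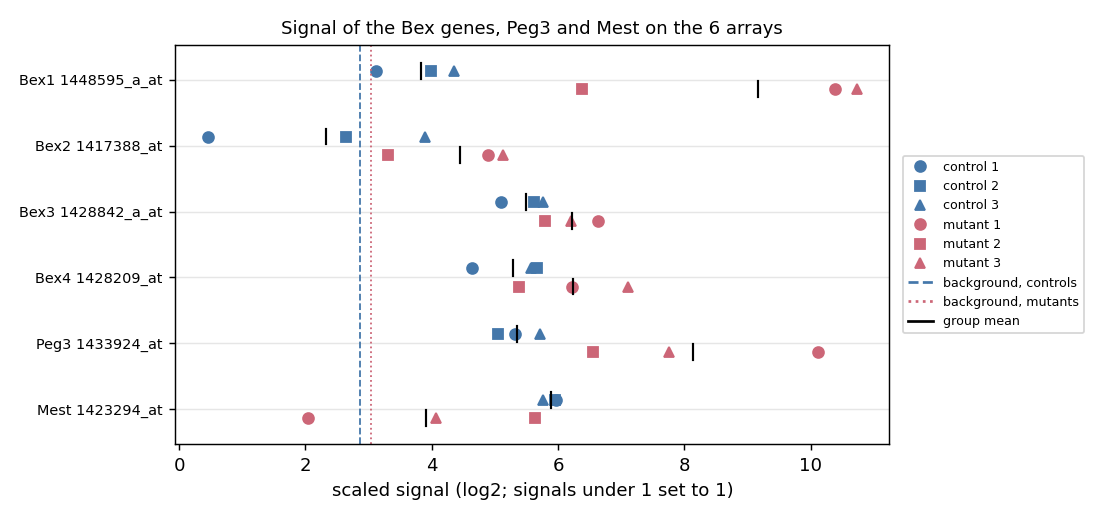
Log2 scaled signal (x axis) of the 4 Bex genes and of the imprinted genes Peg3 and Mest on the 6 arrays, with group means as black ticks and background levels as vertical lines. Mutant 2 is the lowest mutant for each Bex gene and for Peg3, and the mutant nearest the controls for Mest.

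Gpc3 was higher in mutants on its 1 probe set (1450990_at), which read 3.26, 3.80 and 3.67 in controls 1 to 3 and 4.65, 4.83 and 6.09 in mutants 1 to 3. The groups did not overlap. Of the 15 member probe sets tested, 4 had groups that did not overlap, 3 with mutants higher and 1 lower, against 23.2% of all probe sets, 13.8% with mutants higher and 9.36% lower. These counts depend on the scaling. In the deposited, unscaled intensities the Gpc3 groups overlapped, since mutant 1 read 17.4 and control 2 read 18.1. The log2 means of Gpc3 were 3.58 ± 0.28 and 5.19 ± 0.79 (SD, n = 3). Their difference was 1.61 (SE 0.44, 95% interval 0.60 to 2.63) or 3.06-fold, and it did not pass (unadjusted p = 0.00638, adjusted p = 0.285, limma). Mutant 3 was the highest, and without that array the difference was 1.16 (adjusted p = 0.460, limma). Without mutant 1 it was 1.88 (adjusted p = 0.127, limma). Fitted with the RNA integrity index, the difference was 1.82 (adjusted p = 0.929, limma). Of the other glypicans, those with a mean above background were Gpc6, with -1.32 (adjusted p = 0.337), and Gpc4, with -0.50 (adjusted p = 0.428, limma). Gpc1 had both group means below background, and Gpc2 and Gpc5 were at or below it on all arrays.

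Igf2 transcript was at the limit of detection in controls. The brighter of its probe sets (1448152_at) read 1.12, 2.66 and 3.53 in controls 1 to 3 and 4.13, 3.89 and 4.25 in mutants 1 to 3. The mutants sat close together above background, the controls spread widely, and control 3, the only control above background, lay below the lowest mutant. In the deposited, unscaled intensities the groups overlapped, since mutant 1 read 12.1 and control 3 read 13.0. The log2 means were 2.43 ± 1.22 and 4.09 ± 0.19 (SD, n = 3). Because the control mean was below background, the ratio is given as at least 2.34-fold higher in mutants against the control background level, although control 3 itself lay above that level. Without control 1 the fitted difference was 0.999 (adjusted p = 0.681, limma), and both remaining controls, at 2.66 and 3.53, averaged above background, so that the bound rests on control 1. The fitted difference was 1.66 (SE 0.63, unadjusted p = 0.0305, adjusted p = 0.341, limma) and was 0.13 when signals under 16 were set to 16. The second probe set (1415931_at) read at most 0.37 on every array, far below background, and gave no measurement.

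The probe set shared by Mir675 and H19 (1448194_a_at) went the other way on average, with a large spread in both groups. It read 5.03, 7.28 and 8.29 in controls 1 to 3 and 3.53, 6.60 and 4.95 in mutants 1 to 3. The groups overlapped, since mutant 2 lay above control 1. The means were 6.87 ± 1.67 and 5.03 ± 1.54 (SD, n = 3), a difference of -1.84 (SE 0.95, 95% interval -4.04 to 0.36, adjusted p = 0.402, limma). The range over the 3 controls alone was larger than the difference between the groups. Leaving out single arrays moved it from -2.76 without control 1 to -1.09 without mutant 1, with no call. Fitted with the RNA integrity index it was -0.55 (adjusted p = 0.963, limma). The sums of stellate and fibroblast, endothelial and Kupffer cell markers all had the same order of the mutants, with mutant 1 lowest and mutant 2 highest. That order was not limited to these cell types. Car3, a gene that increases as hepatocytes mature, had it too, with 1.28, 9.33 and 5.45 in mutants 1 to 3. The sum of hepatocyte markers had the reverse order (64818, 53039 and 58813), as did the 3' over 5' index. Of the stellate markers 15 of 15 were measured, none at background, with a summed scaled signal of 3281 to 3446 in controls and of 1038, 3967 and 1969 in mutants 1 to 3. The endothelial sums were 622, 1790 and 924 in mutants 1 to 3, and the Kupffer cell sums, with 11 of 11 measured and none at background, were 1296, 1991 and 1382, against 1845 to 2535 in controls. The part of RNA from these cells in this signal was not tested.

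Dlk1 was not detected as a group mean in either genotype. Its probe set 1449939_s_at, which can detect related transcripts, read 0.14, 2.02 and 2.02 in controls and 0, 3.11 and 0.36 in mutants. The other (1442724_at) read 0, 1.37 and 0 in controls and 0.13, 0 and 2.80 in mutants. Both failed the filter, so neither was tested. Mirg, a non-coding RNA gene of the imprinted cluster of Dlk1, had a difference of -0.36 (adjusted p = 0.685, limma). Meg3, of the same cluster and on a probe set that can detect related transcripts, had 0.08 (adjusted p = 0.92, limma), which was -0.37 on the deposited scaling. It was named for its place after its value was seen.

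Afp signal was low in both genotypes at 3 weeks. The probe set with the highest mean (1416645_a_at) read 4.91, 4.55 and 3.75 in controls 1 to 3 and 4.42, 2.69 and 3.37 in mutants 1 to 3. The groups overlapped, and mutant 2, not mutants 1 or 3, was the lowest and lay below background. In the deposited, unscaled intensities they did not overlap, with 15.2 to 30.8 in controls and 6.95 to 14.8 in mutants. The log2 means were 4.40 ± 0.59 and 3.49 ± 0.87 (SD, n = 3), a difference of -0.91 (SE 0.53, 95% interval -2.13 to 0.31, adjusted p = 0.436, limma). A second probe set (1416646_at) read 4.24, 4.13 and 3.86 in controls and 3.58, 2.87 and 3.81 in mutants. All 3 mutants lay below all 3 controls there, mutant 3 only just, and the difference of -0.66 did not pass (adjusted p = 0.440, limma). Another (1436879_x_at, which can detect related transcripts) had both means below background and a difference of -0.07, and 2 further probe sets failed the filter. None of the 3 tested Afp probe sets had a positive difference, and the upper ends of the 95% intervals for the 2 that were above background were 0.31 and 0.24.

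The other albumin family genes measured had differences of opposite sign. Afm, afamin, had a difference of -0.90 (adjusted p = 0.350, limma) with all mutants below all controls. Alb, albumin, had 0.40 (adjusted p = 0.404, limma), a sign that turned on the deposited scaling (-0.05). Gc had no probe set by the 1-symbol rule.

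**Figure D3:**
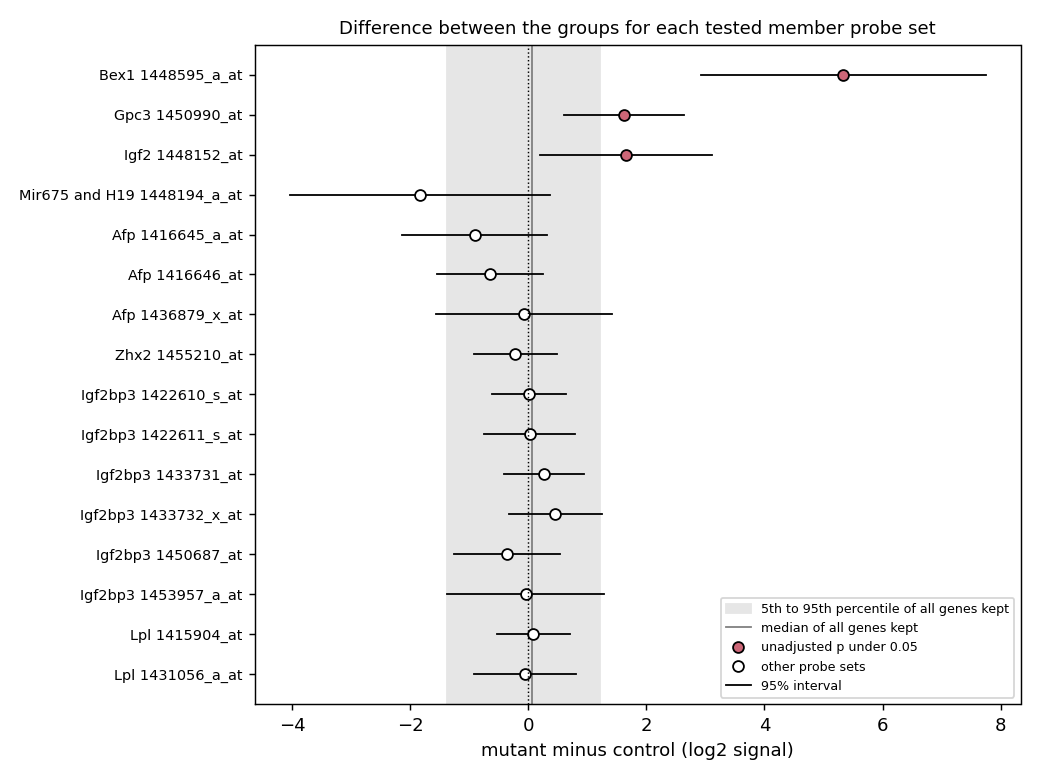
Difference between mutants and controls (x axis, log2 signal) with its 95% interval for each tested member probe set and for the probe set shared by Mir675 and H19, over the 5th to 95th percentile of all 13144 genes kept (grey band, -1.38 to 1.21). Only the probe sets of Bex1, Gpc3 and Igf2 have intervals that lie wholly above 0, and none lies wholly below it.

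Zhx2 and Lpl did not differ detectably. Zhx2 (1455210_at) read 5.53, 5.45 and 5.22 in controls and 4.81, 5.10 and 5.64 in mutants, so the mutants reached both below and above the controls. Its difference was -0.22 (SE 0.31, 95% interval -0.92 to 0.49, adjusted p = 0.734, limma). Lpl was bright on both of its probe sets. The brighter (1415904_at) read 10.58, 10.91 and 10.67 in controls and 10.29, 11.13 and 10.99 in mutants, a difference of 0.08 (95% interval -0.54 to 0.70, adjusted p = 0.898, limma). The other (1431056_a_at) differed by -0.06 (adjusted p = 0.952, limma), and on both mutant 1 was the lowest of the 6 arrays and mutant 2 the highest. The sign of the brighter Lpl probe set turned on the deposited scaling (-0.37) and with arrays centred on their median (-0.15), so no direction is given. Endothelial markers and stellate markers also had their lowest sum of the 6 arrays in mutant 1 and their highest in mutant 2. The 3' over 5' index was the highest of the 6 arrays in mutant 1 and the lowest of the mutants in mutant 2. Of the endothelial markers 11 of 11 were measured, none at background, with sums of 929 to 1336 in controls and 622 to 1790 in mutants. Gpihbp1, the endothelial anchor of lipoprotein lipase, did not share that order and read 7.39, 7.51 and 7.09 in mutants 1 to 3. The part of endothelial or stellate RNA in the Lpl signal was not tested.

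Igf2bp3 was measured by 6 probe sets, all above background, and none passed. The brightest (1433731_at) read 7.21, 6.97 and 7.01 in controls and 7.64, 6.75 and 7.58 in mutants, with mutant 2 below all controls and the other 2 mutants above them. Its difference was 0.26 (SE 0.29, adjusted p = 0.672, limma). The other 5 had differences of -0.36 to 0.46, with adjusted p-values between 0.522 and 0.983 (limma). The probe sets 1422610_s_at, 1422611_s_at and 1433732_x_at can detect related transcripts, so signal from other members of the family cannot be told apart on them.

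Of the members taken by their brightest probe set kept, 5 of 7 genes had a positive difference, with a median of 0.26 where the median over all 13144 genes was 0.06. The scaling moved both: on the deposited scaling the median over all genes was -0.39 and with arrays centred on their median -0.17, and the members then had 3 and 4 of 7 positive. Bex1, Gpc3 and Igf2 kept a positive difference, and the first Afp probe set and the shared Mir675 and H19 probe set a negative one, under each scaling and each other setting tried. Across those settings Bex1 lay between 3.13 and 6.73, Gpc3 between 0.67 and 2.28, Igf2 between 0.13 and 2.20, that Afp probe set between -1.65 and -0.28 and the shared probe set between -2.76 and -0.55. With limma's array weights Bex1 and Gpc3 passed the threshold (adjusted p = 0.0019 and 0.00647, limma), as did 758 genes higher and 894 lower in all. The weights of mutants 1 to 3 were 0.205, 0.464 and 2.92. The mutant side of these calls thus rests mostly on mutant 3, the array with the highest reading for both Bex1 and Gpc3.

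**Figure D4:**
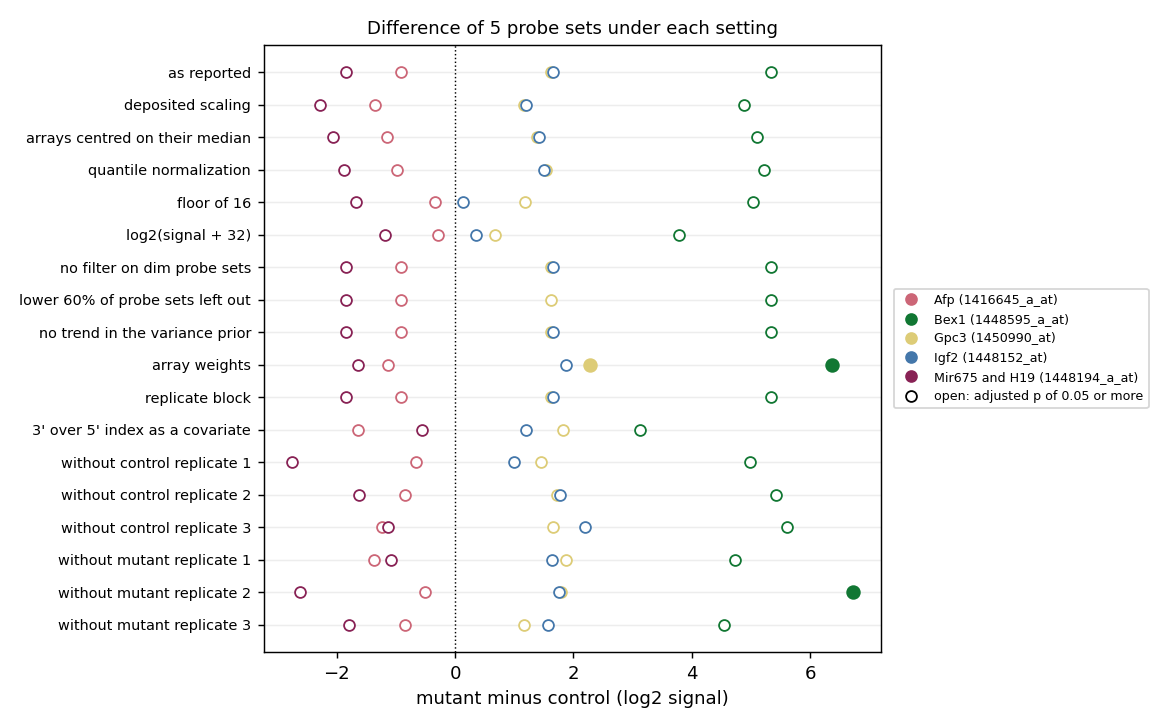
Difference between mutants and controls (x axis, log2 signal) for 5 probe sets under the reported setting and each alternative (rows), filled where the adjusted p was under 0.05. Bex1 is filled with array weights and without mutant replicate 2, Gpc3 with array weights, and no point crosses 0.

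Other genes known to be high in fetal or newborn liver were followed as a list of 28, of which 26 had a probe set, 20 were kept and none passed in either direction (limma; by unadjusted p under 0.05, 3 were higher and 3 were lower, against 7.36% and 7.01% of all genes). Their median difference was 0.10 (-0.35 on the deposited scaling), and 10 were positive and 10 negative, where 45.9% of all genes were negative. Peg3, an imprinted zinc finger gene, read 5.31, 5.04 and 5.71 in controls and 10.11, 6.55 and 7.76 in mutants, a difference of 2.78 (SE 0.78, adjusted p = 0.287, limma) or 6.89-fold, with no overlap. Aldoa, the muscle and fetal form of aldolase, had 1.55 (adjusted p = 0.231, limma) on a probe set that can detect related transcripts. Mest, another imprinted gene, read 5.96, 5.96 and 5.76 in controls and 2.04, 5.63 and 4.07 in mutants, a difference of -1.98 (adjusted p = 0.348, limma). Gas2 had -1.03 (adjusted p = 0.315, limma). The oncofetal RNA regulators Lin28a, Lin28b, Trim71 and Igf2bp1 were at or below background on all 6 arrays.

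Of the regulators of Afp and members of the Zhx family, 19 of 22 were kept, none passed and none had an unadjusted p under 0.05 (limma). The median was -0.15 with 13 negative and 6 positive, where 45.9% of all genes were negative. On the deposited scaling it was -0.60 with 17 negative and 2 positive. Zhx3 had 0.65 (adjusted p = 0.382), the factor Cebpb 0.57 (adjusted p = 0.408), Ppara -0.92 (adjusted p = 0.457) and Onecut1, a factor of liver development, -1.23 (adjusted p = 0.470, limma). Zbtb20, a repressor that silences Afp after birth, had -0.21 (adjusted p = 0.741, limma). It was named for its role after its value was seen.

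Of 26 genes known to increase as hepatocytes mature after birth, 21 were kept and none passed (limma). By unadjusted p under 0.05, 4 were higher and 2 were lower, against 7.36% and 7.01% of all genes. The median was 0.21 with 13 positive and 8 negative, where 45.9% of all genes were negative. On the deposited scaling the median was -0.24 with 7 positive. Ass1, of the urea cycle, had 1.41 (adjusted p = 0.167, limma). Its probe set (1459937_at) was dim, with means of 4.71 in controls and 6.12 in mutants, and had the lowest control mean of the 21. Aass had 0.84 (adjusted p = 0.241) and Tat, tyrosine aminotransferase, 0.88 (adjusted p = 0.250, limma). Car3, carbonic anhydrase 3, read 12.89, 12.59 and 12.63 in controls and 1.28, 9.33 and 5.45 in mutants, a difference of -7.35 (adjusted p = 0.203, limma).

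Around Igf2, all 10 genes for its receptors and binding proteins were kept and none passed. By unadjusted p under 0.05, 3 were higher and 1 was lower, against 7.36% and 7.01% of all genes (limma). The binding protein Igfbp2 read 10.75, 10.22 and 11.21 in controls and 12.31, 11.52 and 11.76 in mutants, a difference of 1.14 (adjusted p = 0.287, limma). Igf1r, the receptor through which IGF2 signals, had 1.17 (adjusted p = 0.322), and Igf2r, which clears IGF2, had -0.85 (adjusted p = 0.458, limma; named for its role after its value was seen). Igfbp1 had 1.62 and Igfbp3 -1.73 (adjusted p = 0.0888 for both, limma). Among the imprinted neighbours and regulators of H19 and Dlk1, 6 of 12 were kept and none passed. Kcnq1ot1, a non-coding RNA of the imprinted domain next to Igf2, read 1.94, 2.12 and 3.37 in controls and 4.99, 3.96 and 4.80 in mutants. That was at least 3.29-fold higher against the control background, although control 3 itself lay above that level, with an adjusted p of 0.248 (limma). Trim28, a corepressor that maintains imprints, had 0.49 (adjusted p = 0.376, limma) on a probe set that can detect related transcripts. The insulator protein gene Ctcf had 0.11 (adjusted p = 0.829, limma), which was -0.34 on the deposited scaling and -0.13 with arrays centred on their median.

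Around Lpl, 12 of 14 genes for its partners and relatives were kept and none passed. By unadjusted p under 0.05 (limma), 1 was higher and 1 was lower, against 7.36% and 7.01% of all genes. Lipg, endothelial lipase, was at least 4.43-fold lower in mutants (adjusted p = 0.222), and the receptor Vldlr was 2.83-fold higher on average (adjusted p = 0.262, limma). Lmf1, needed for the folding of lipoprotein lipase, had -0.51 (adjusted p = 0.387), and Apoc1 0.38 (adjusted p = 0.387, limma), which was -0.07 on the deposited scaling and -0.02 after quantile normalization.

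**Figure D5:**
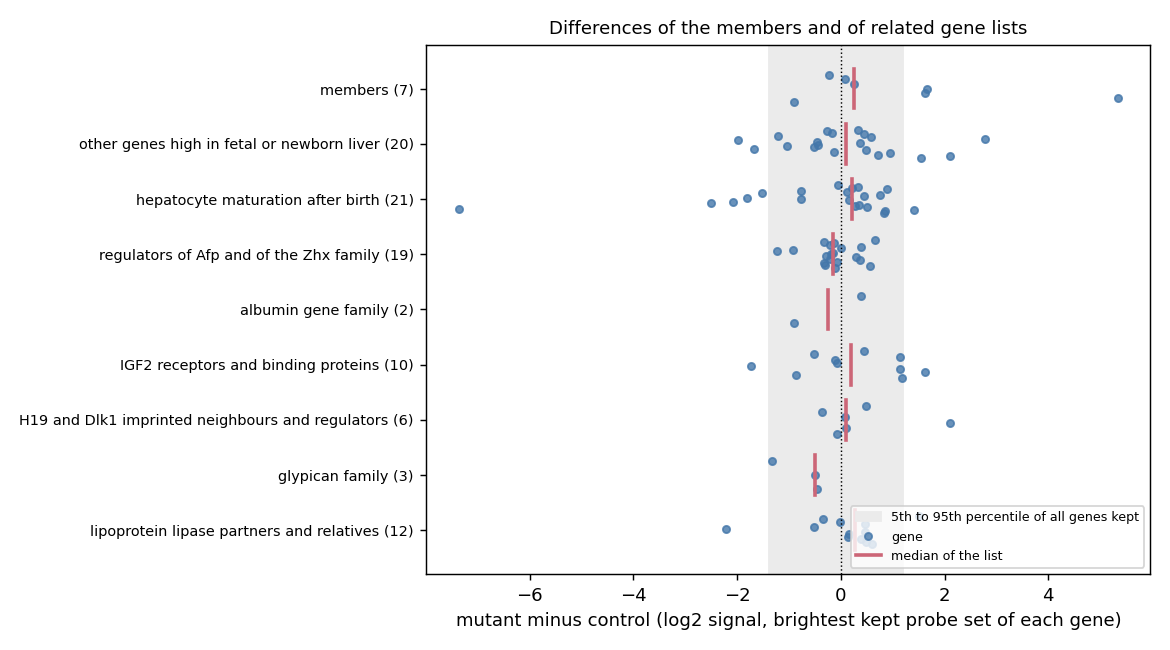
Difference between mutants and controls (x axis, log2 signal) for each gene of the members and of the 8 related lists, with the number of genes kept in brackets, the median of each list as a red tick and the 5th to 95th percentile of all genes kept as a grey band. The list medians lie between -0.50 and 0.27, and Bex1 (5.34) and Car3 (-7.35) lie farthest from 0.

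Genes with array profiles most like those of the members were found by the mean absolute difference between centred log2 profiles over the 6 arrays, which is a description and carries no test. For Bex1 the nearest were Lepr, the leptin receptor, at 0.80 and Mapk13, a p38 kinase, at 0.92. Lepr (1456156_at) read 2.69, 2.86 and 5.66 in controls and 9.65, 6.97 and 9.67 in mutants, with all mutants above all controls as for Bex1, which the choice of a like profile fixes. For Gpc3 the nearest were Osbpl3 at 0.17 and Mdm1 at 0.20, for Igf2 Ptpn5 at 0.18 and 4930434J06Rik at 0.22, and for Afp Erp27 at 0.15 and Cldn13 at 0.17.

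Markers of the other cell types that could carry these transcripts were followed as well. Cholangiocyte and progenitor markers, of which 9 of 12 were measured, had sums of 112 to 171 in controls and 147 to 260 in mutants, and Cftr, Cldn7 and Muc1 were at or below background on all arrays. Krt19, a keratin of bile duct cells, had a difference of 0.81 (adjusted p = 0.364) and Krt23 1.06 (adjusted p = 0.344, limma). Erythroid markers, of which 11 of 16 were measured, 8 kept and 5 of these positive (median 0.24, and -0.21 on the deposited scaling), had sums of 493 to 1024 in controls and 394 to 820 in mutants, with Epb42 and Rhd at or below background. The erythroid enzyme Alas2 read 7.71, 8.68 and 7.99 in controls and 2.77, 8.27 and 4.42 in mutants, a difference of -2.97 (adjusted p = 0.352, limma), while Epor, the erythropoietin receptor, had 0.93 (adjusted p = 0.365, limma). Of the 15 stellate markers 12 were negative (median -0.87), where 45.9% of all genes were negative. By unadjusted p under 0.05 (limma), 4 were lower and 1 was higher, against 7.01% and 7.36% of all genes. The collagen genes Col3a1, Col1a1 and Col1a2 had -3.56, -2.53 and -1.93 (adjusted p = 0.296, 0.307 and 0.296, limma), and Pdgfra, 1 of the 3 positive markers, had 1.28 (adjusted p = 0.277, limma). The part of these cells in the values of Bex1, Gpc3 and Igf2 was not tested.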

How the data were processed

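RNA from 6 liver samples, 3 control and 3 mutant, was labelled in 1 amplification cycle, per the labels' protocols. Each probe set had 1 deposited intensity per array on a linear scale, which the authors made with GCOS per the submitters' processing notes, with its algorithm, version and scaling not given in the sources used here. Trimmed means (2% off each end) ran from 37.3 to 69.9, over the 5% limit for leaving them, so arrays were scaled to 1 mean. After setting signals under 1 to 1 and taking log2, probe sets in the dimmest 40% (mean at most 2.10) were dropped, leaving 27022 probe sets and 13144 genes, each gene by its brightest. Groups were compared with limma 3.58.1 in R 4.3.3 (lmFit, eBayes with trend, two-sided, Benjamini-Hochberg over all probe sets kept). Background was the 95th percentile of 83 receptor probe sets. Scaling, floor, filter, variance prior, array weights, replicate block, the 3' over 5' covariate and each array left out were tried as alternatives. Symbols came from the platform annotation, updated by Entrez identifier for 34741 probe sets, and 932 with several symbols were assigned to no gene. Every member probe set and, of each list, up to 4 genes with the smallest unadjusted p are named, with exceptions marked. The members and lists were chosen with earlier results of these data known. The fit was tested on simulated data. The number of arrays limits the precision, and since no label says that the samples are separate animals, p-values measure the spread between these samples, which may be technical.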

Additional observations from a re-analysis of the deposited data

How the results depend on the processing

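The number of genes past the threshold, 4 higher and 11 lower as reported (limma), moved with the setting. It was 18 lower on the deposited scaling, 1 higher and 2 lower with a floor of 16, 7 and 62 after log2(signal + 32), 0 and 0 with no filter (1250 and 920 by unadjusted p under 0.05), and 2 and 7 with the lower 60% of probe sets left out. It was 0 and 5 without the variance trend, 758 and 894 with array weights, and 0 and 3 when fitted with the RNA integrity index. Leaving out single arrays gave 0 to 74 higher and 1 to 234 lower, the highest without mutant 2. Among member probe sets, 2 were called higher with array weights, and 0 to 1 without single arrays. With the replicate block 2 genes were higher and no member call changed. Same-numbered arrays did not deviate together (correlations of -0.04, 0.02 and 0.04), and no source says that the numbers pair the mice.

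Sign changes occurred in Igf2bp3, Lpl, Zhx2 and Afp 1436879_x_at, none of them called, with reported differences between -0.36 and 0.46, and the cause was not tested. On the deposited scaling Lpl 1415904_at was -0.37 and Igf2bp3 had -0.44 (1422610_s_at), -0.43 (1422611_s_at) and -0.19 (1433731_at). With arrays centred on their median these were -0.15, -0.22 and -0.21 for the first 3. With array weights Lpl 1431056_a_at was 0.087, Igf2bp3 1450687_at was 0.086 and Zhx2 was 0.10. Igf2bp3 1453957_a_at was 0.12 with a floor of 16 and 0.036 after log2(signal + 32). Fitted with the RNA integrity index, Igf2bp3 had -0.17 (1422610_s_at), -0.20 (1433731_at) and -0.092 (1433732_x_at), Lpl 1431056_a_at 0.87, Afp 1436879_x_at 0.079 and Zhx2 0.065. Leaving out single arrays gave -0.53 to 0.27 for Afp 1436879_x_at, -0.083 to 0.34 and -0.42 to 0.36 for Lpl 1415904_at and 1431056_a_at, and -0.13 to 0.20, -0.16 to 0.25 and -0.64 to 0.49 for Igf2bp3 1422610_s_at, 1422611_s_at and 1453957_a_at. Igf2 and Afp 1436879_x_at could not be fitted with the lower 60% left out. Members near background, above all Igf2, Afp, and Gpc3 and Bex1 in controls, are limited by their signal over it.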
